A study of Danio rerio with 18 samples.

Results

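The neural progenitor and neuron genes examined here are a list of 46 zebrafish symbols, in which the transcription factors, Notch pathway genes and structural genes of dividing neural progenitors stand against the proneural factors and neuron genes of cells that leave the progenitor state. A row was taken as a member where its gene symbol equalled a listed symbol regardless of case, or, failing that, equalled it without the final paralogue letter. By symbol 27 listed genes matched, and 14 more matched without the letter. No row carried the symbols her6, her9, her13 or dla, which were not analysed here. The row called DLD carries the human symbol of dihydrolipoamide dehydrogenase, an enzyme, and was not taken for the Notch ligand dld. The 41 matched genes gave 44 rows among the 32057 genes of the tables, 25 of them progenitor and Notch genes and 19 of them proneural and neuron genes. Where a letterless symbol belonged to a pair of rows, each is printed with its identifier, and which row is which paralogue is not given by the name table. For zic2a, fabp7a and stmn1b only 1 paralogue was listed but a pair of rows matched, and both rows are kept.

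Neural progenitors of the embryonic brain, spinal cord and retina are held in a dividing state by SoxB1 factors and by Notch signalling. A cell that starts to differentiate expresses proneural basic helix-loop-helix factors and the Delta ligands that they switch on. Delta activates Notch receptors on neighbouring cells, in which hairy-related (her) repressors then keep proneural genes low. Proneural factors switch on later transcription factors such as those of the NeuroD, Insm1, Ebf and Nhlh families, followed by genes of the neuronal cytoskeleton, RNA-binding proteins and synapse.

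RNA was measured in whole zebrafish embryos that were exposed to 30 Gy of X-rays, at 5 Gy per min, at the stage of 30 h after fertilization, and in untreated embryos of the same stage label. Embryos of 3 genotypes were used, with 2 libraries in each of 9 groups. p53 +/+ embryos, called wild type here, were untreated or taken 3 h after irradiation, and p53 -/- embryos were untreated or taken after 1 h or 3 h. The triple mutant, puma -/- noxa -/- p21 -/-, was untreated or taken after 1 h, 2 h or 3 h. puma and noxa encode pro-apoptotic BH3-only proteins and p21 encodes an inhibitor of cyclin-dependent kinases, all of them known p53 targets. The labels state neither when untreated embryos were collected nor whether the 2 libraries of a group came from separate clutches, so a p-value measures the spread between libraries, whatever its source. Embryos taken later after irradiation were also older. Irradiation and embryo age therefore cannot be told apart in changes from untreated embryos or over time. Levels are given in TPM, a relative transcript abundance that takes gene length into account and has the same total in every library. TPM holds no read counts, so the depth is unknown and no counting interval is given. In whole embryos, fewer cells of a type and less RNA per cell cannot be told apart.

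All 44 rows passed the filter of at least 1 TPM in at least 2 libraries, as did 18575 of all genes, and all 44 were above 0 in every one of the 18 libraries. Changes are differences in log2(TPM + 1), which understate the change of low genes. The main test was limma over all 9 groups, with a gene called at an adjusted p (Benjamini-Hochberg over all genes kept) below 0.05. In that fit 0 of the 44 rows were called in any of the 11 comparisons made. At an unadjusted p below 0.05 there were 6 rows in wild type at 3 h, 1 and 8 in p53 -/- at 1 h and 3 h, and 2, 4 and 6 in the triple mutant at 1 h, 2 h and 3 h. Between 1 h and 3 h in the triple mutant there were 5. The share of all genes kept that was called was 3.78% in wild type at 3 h, 0.00538% and 0.458% in p53 -/- at 1 h and 3 h, 0.0808%, 0.221% and 0.748% in the triple mutant at 1 h, 2 h and 3 h, and 0.377% from 1 h to 3 h. A second limma fit used the libraries of 1 genotype at a time, and below it is called the fit within the genotype. It called 0 of the 44 rows in wild type and in p53 -/-, where 0.521% of genes tested were called in wild type and 0.0% and 0.00568% in p53 -/- at 1 h and 3 h.

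The libraries of 3 groups did not resemble each other. Ribosomal 5.8S RNA was above 0 in 6 of the 18 libraries, the pairs of untreated wild type, untreated p53 -/- and p53 -/- at 1 h. In each pair replicate 1 was the higher, at 392, 631 and 304 TPM, and replicate 2 the lower, at 16.8, 13.6 and 52.8 TPM. Of the 44 neural rows, 36 were higher in the library with less 5.8S RNA in untreated wild type, 25 in untreated p53 -/- and 39 in p53 -/- at 1 h. The same held for 75.8%, 78.9% and 83.4% of all genes kept. ELAVL3, which encodes the pan-neuronal RNA-binding protein HuC, stood at 18.0 and 206 TPM in the 2 libraries of p53 -/- at 1 h. It stood at 72.1 and 241 TPM in untreated wild type, and at 70.4 and 150 TPM in untreated p53 -/-. NOTCH3, a receptor gene, ran from 14.5 to 73.7 TPM within p53 -/- at 1 h. On the log2 scale the widest such pair, that of ELAVL3, differed by 3.44, while the largest change of any neural row from untreated in the triple mutant was 1.64. The share of mitochondrial transcripts also ran from 1.15% to 8.06% over the libraries. In each of the 3 pairs it was higher in the library with less 5.8S RNA. Counts of calls in comparisons that use one of these 3 groups are therefore given with and without the libraries of high and of low 5.8S RNA. The 8 triple-mutant libraries were all at 0 for 5.8S RNA.

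**Figure D1:**
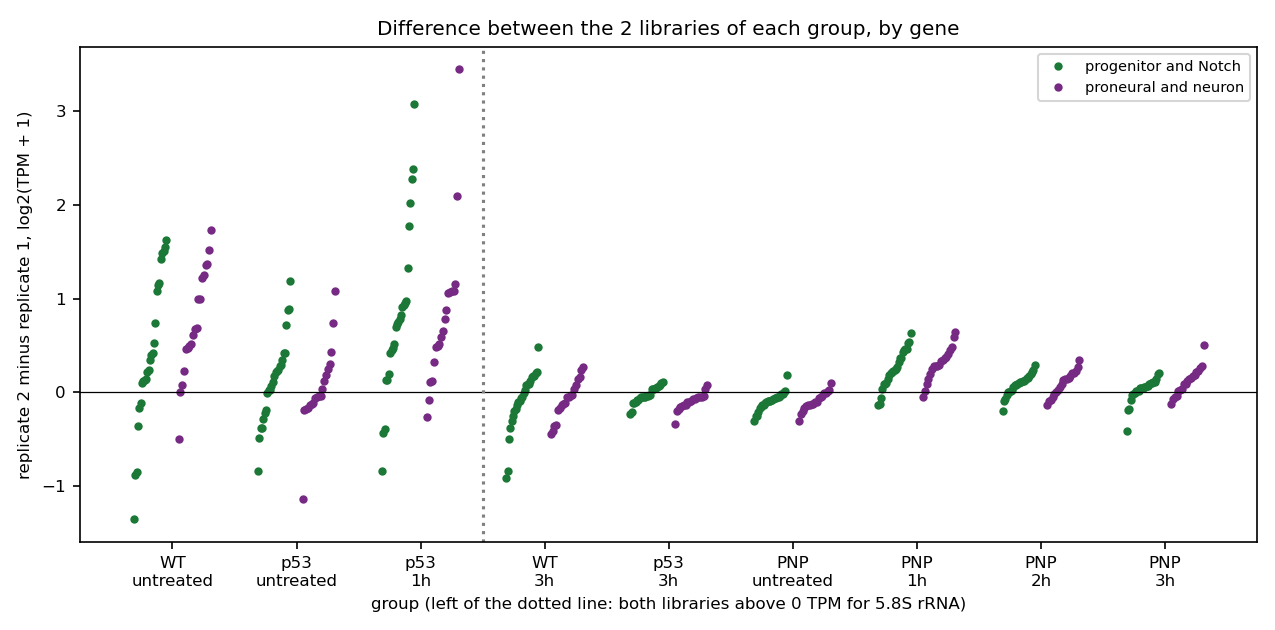
Difference in log2(TPM + 1) between replicate 2 and replicate 1 of each group, with 1 point for each of the 44 rows (green, progenitor and Notch genes; purple, proneural and neuron genes). The 3 groups left of the dotted line hold 5.8S RNA, and their points reach 3.44, while no triple-mutant pair has a point beyond 0.64.

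The most abundant progenitor row was FABP7 (ENSDARG00000007697), which encodes the brain fatty acid-binding protein of radial glia. It ranged from 227 to 629 TPM over the 18 libraries. The SoxB1 factor SOX3 ranged from 101 to 358 TPM and sox19a, a SoxB1 factor of fish, from 106 to 225 TPM. These were the highest SoxB1 levels, above SOX2 at 29.3 to 104 TPM. GFAP, the intermediate filament gene of radial glia, ranged from 59.1 to 108 TPM. ZIC1, a factor of the dorsal neural tube, ranged from 18.6 to 79.0 TPM. Relative to its lowest value, GFAP had the narrowest range of these 6 rows and ZIC1 the widest.

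Among Notch genes the ranges were wider for receptors than for the Delta gene dlb. NOTCH3 ranged from 11.7 to 109.6 TPM and NOTCH1 (ENSDARG00000103554) from 11.5 to 62.4 TPM. The Delta genes dlb and dlc, which encode ligands, ranged from 38.4 to 93.2 TPM and from 10.7 to 43.7 TPM. The effectors her4.1 and her4.2 ranged from 23.8 to 122.6 TPM and from 32.1 to 106 TPM.

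On the proneural side, NEUROD4, which acts after the first proneural factors, ranged from 27.9 to 157 TPM. ascl1b, an achaete-scute proneural factor, ranged from 30.9 to 61.3 TPM. INSM1 (ENSDARG00000091756) ranged from 27.3 to 112 TPM and nhlh2 from 33.2 to 66.4 TPM. Among neuron genes, STMN1 (ENSDARG00000004169), a microtubule regulator, ranged from 332 to 491 TPM, and tubb5, a beta-tubulin, from 134 to 568 TPM. The lowest rows included FABP7 (ENSDARG00000034650) at 2.32 to 11.7 TPM and atoh7, which specifies retinal ganglion cells, at 2.27 to 24.3 TPM.

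Untreated triple mutants had lower values for most neural genes than the other untreated embryos. Both triple-mutant libraries lay below all 4 untreated libraries of the other genotypes for 28 of 44 rows, against 34.1% of all genes kept. These were 15 of 25 progenitor and Notch rows and 13 of 19 proneural and neuron rows. Both lay above for 3 rows, namely her4.2, FABP7 (ENSDARG00000034650) and ATOH1, against 14.5% of all genes. Without the libraries of high 5.8S RNA, 34 rows lay below and 4 above, where 63.0% and 17.9% of all genes did. Without those of low 5.8S RNA, 30 lay below and 4 above, where 37.0% and 31.5% did. The triple mutant has a table of its own, so genotype and the making of that table cannot be told apart, and these levels carry no test.

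**Figure D2:**
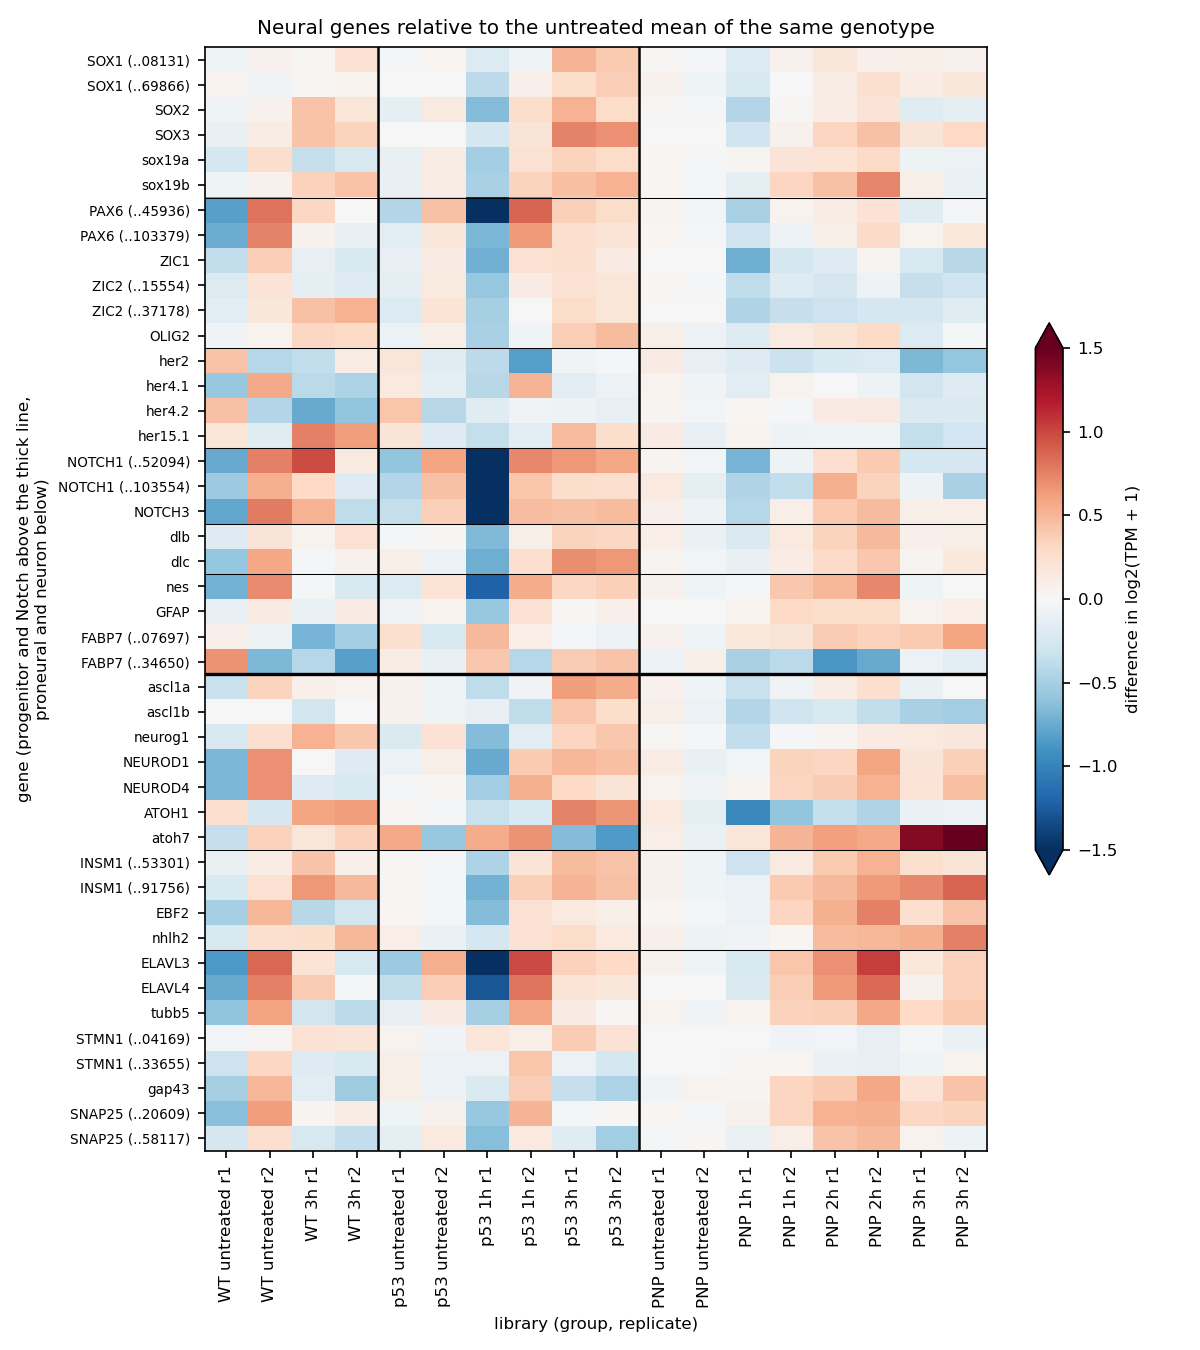
Each of the 44 rows in each of the 18 libraries, as log2(TPM + 1) minus the mean of the 2 untreated libraries of the same genotype (red higher, blue lower, colours saturate at 1.5 and -1.5). Progenitor and Notch rows are above the thick line and proneural and neuron rows below it. The widest swings are between p53 -/- 1 h replicates 1 and 2, while in the triple mutant atoh7 is the darkest red at 3 h.

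In the triple mutant, proneural and neuron genes stood higher relative to progenitor and Notch genes in irradiated embryos than in untreated ones. The part of embryo age in this difference was not tested. At 3 h the median change was 0.25 for the 19 proneural and neuron rows and -0.10 for the 25 progenitor and Notch rows, with 0.07 for all genes kept. The gap between those medians, neuron minus progenitor, was 0.19 at 1 h, 0.28 at 2 h and 0.35 at 3 h on the log2 scale. Each library was also set against the untreated mean. The gap was then 0.01 and -0.01 in the untreated pair, 0.14 and 0.27 in the pair of 1 h, 0.23 and 0.26 in that of 2 h and 0.28 and 0.43 in that of 3 h. All 6 irradiated libraries thus stood above both untreated ones. The untreated values mirror each other around 0 because each pair was set against its own mean. Over the main fit and its 26 alternatives the gap at 3 h ran from 0.27 to 0.43. Most of these alternatives kept the untreated and 3 h libraries of the triple mutant and their scale, so they could not change this gap. In p53 -/- at 3 h the gap was -0.03 and -0.08 in the 2 libraries, and in wild type at 3 h it was 0.06 and -0.05. Dropping untreated replicate 1, rich in 5.8S RNA, took the wild-type gap at 3 h to -0.33. Dropping untreated replicate 2 instead took it to 0.05. The untreated pairs were themselves apart, at -0.17 and 0.17 in wild type and at 0.11 and -0.11 in p53 -/-. No test is given for these medians, because the rows were chosen with earlier results known.

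**Figure D3:**
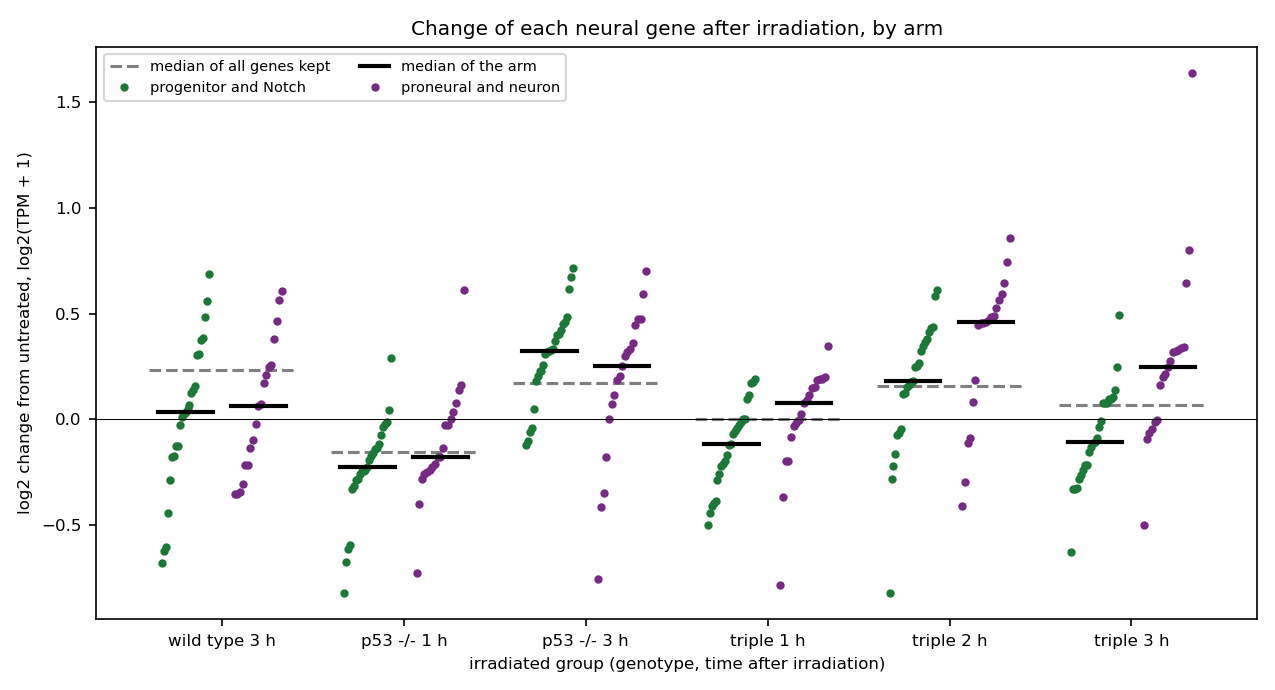
Log2 change of each row from the untreated group of its genotype in the 6 irradiated groups, by arm (green, 25 progenitor and Notch rows; purple, 19 proneural and neuron rows; black bar, arm median; dashed line, median of all genes kept). The purple median is above the green one by 0.28 and 0.35 in the triple mutant at 2 h and 3 h, and atoh7 is the highest point at 3 h, at 1.64.

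At 3 h after irradiation, a few genes of early neuronal differentiation were higher in the triple mutant. atoh7 stood at 2.74 and 2.27 TPM in untreated embryos, 2.96 and 3.98 TPM at 1 h, 4.37 and 4.18 TPM at 2 h, and 8.11 and 11.96 TPM at 3 h. Both 3 h libraries were above the 6 others. In wild type atoh7 stood at 14.7 and 24.3 TPM untreated and at 21.5 and 24.2 TPM at 3 h, above every triple-mutant library. Each genotype has a table of its own, so this difference in level carries no test. The change of atoh7 at 3 h in the triple mutant was 1.64 (SE 0.337, n = 2 against 2) in the limma fit over all groups. Its adjusted p there was 0.0537, just short of the threshold. In the limma fit within the genotype its SE was 0.183 and its adjusted p 0.000649, and it was called in all 12 alternatives to that fit, with adjusted p from 0.000589 to 0.0103.

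Other factors, which act downstream of proneural genes, were also higher at 3 h, and they stood higher already at 2 h. No order or dependence among these genes was tested. nhlh2, a helix-loop-helix factor of young neurons, stood at 39.7 and 35.7 TPM in untreated triple mutants, 36.1 and 38.4 TPM at 1 h, 52.6 and 53.6 TPM at 2 h, and 54.9 and 64.4 TPM at 3 h. The 1 h values overlapped the untreated ones and the later ones did not. Its change at 3 h was 0.65, with a limma adjusted p of 0.433 over all groups and 0.00465 within the genotype, where the call was lost without untreated replicate 2 (adjusted p up to 0.0733 over the alternatives) and without 3 h replicate 2. INSM1 (ENSDARG00000091756), a zinc finger factor of cells leaving the cycle, stood at 30.4 and 27.9 TPM in untreated embryos, 27.3 and 38.6 TPM at 1 h, 41.1 and 45.9 TPM at 2 h, and 48.8 and 54.2 TPM at 3 h. From 2 h on its values were above every earlier one. Its change at 3 h was 0.80, with a limma adjusted p of 0.696 over all groups and 0.0116 within the genotype, where the call was lost without either untreated library or without 3 h replicate 2. FABP7 (ENSDARG00000007697), on the progenitor side, also went up, from 246 and 227 TPM to 265 and 270 TPM at 1 h, 307 and 302 TPM at 2 h, and 311 and 358 TPM at 3 h. The 2 libraries of each time were above both of the preceding group at 1 h, 2 h and 3 h. Its change at 3 h was 0.50, with a limma adjusted p of 0.661 over all groups and 0.00722 within the genotype, lost there without untreated replicate 2 or 3 h replicate 2.

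**Figure D4:**
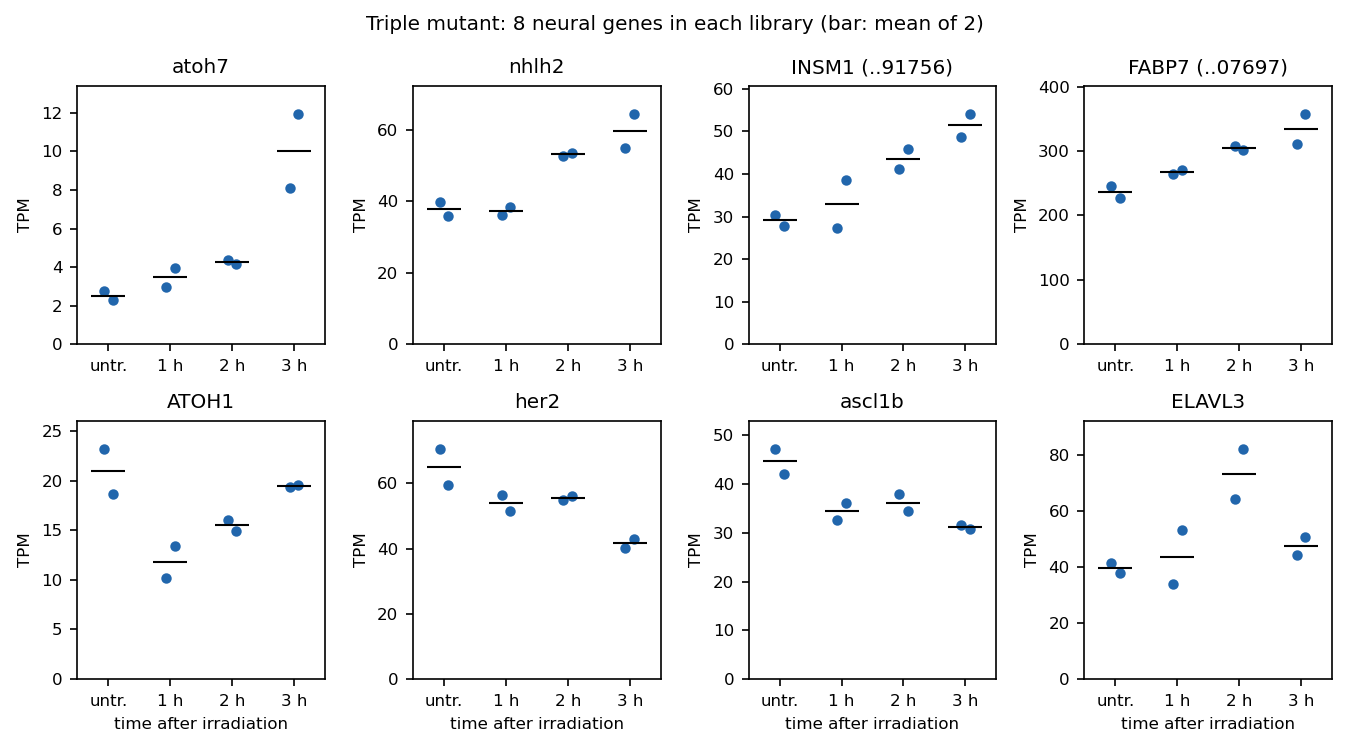
TPM of 8 rows in each triple-mutant library, untreated and at 1 h, 2 h and 3 h (points, libraries; bars, means of 2; axes start at 0). atoh7 reaches 11.96 TPM at 3 h, ATOH1 is lowest at 1 h, her2 and ascl1b are lowest at 3 h, and ELAVL3 is highest at 2 h.

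The Notch effectors stood lower at 3 h in the triple mutant, and 1 of them was called, only in the fit within the genotype. her2, a hairy-related repressor, stood at 70.7 and 59.4 TPM in untreated triple mutants, 56.5 and 51.6 TPM at 1 h, 54.9 and 56.0 TPM at 2 h, and 40.2 and 43.0 TPM at 3 h. Both 3 h values were below the 6 others. The change was -0.63 (SE 0.263 over all groups, 0.0994 within the genotype), with limma adjusted p of 0.902 and 0.00573, and the second was lost without untreated replicate 1 or 3 h replicate 1. All 4 Notch effector rows, her2, her4.1, her4.2 and her15.1, had both 3 h libraries below the 6 other triple-mutant libraries. So did sox19a and the proneural factor ascl1b, which makes 6 of 44 rows against 4.23% of all genes kept. her15.1 stood at 44.0 and 36.9 TPM untreated and at 31.4 and 32.8 TPM at 3 h, a change of -0.32 with limma adjusted p of 1 over all groups and 0.0910 within the genotype. her4.1 and her4.2 changed by -0.24 and -0.22, with limma adjusted p of 0.182 and 0.107 within the genotype, so of the 4 effectors her2 alone was called there. With median-of-ratios scaling her4.1 was called lower too, with a change of -0.32 and a limma adjusted p of 0.0366.

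her4.1 and her4.2 are near-identical tandem copies, and how reads were shared between them is not given in the sources used here, so their separate levels are uncertain; her15.1 also lies in a tandem cluster. her4.2 made up 75.8% to 79.3% of their sum in the 8 triple-mutant libraries and 25.2% to 58.4% in the 10 others. Their sum is not changed by how reads were split between the pair, though reads shared with further copies could still change it. It was 130 and 122 TPM in untreated triple mutants, 125 and 125 TPM at 1 h, 134 and 134 TPM at 2 h, and 107 and 108 TPM at 3 h, again lowest at 3 h.

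**Figure D5:**
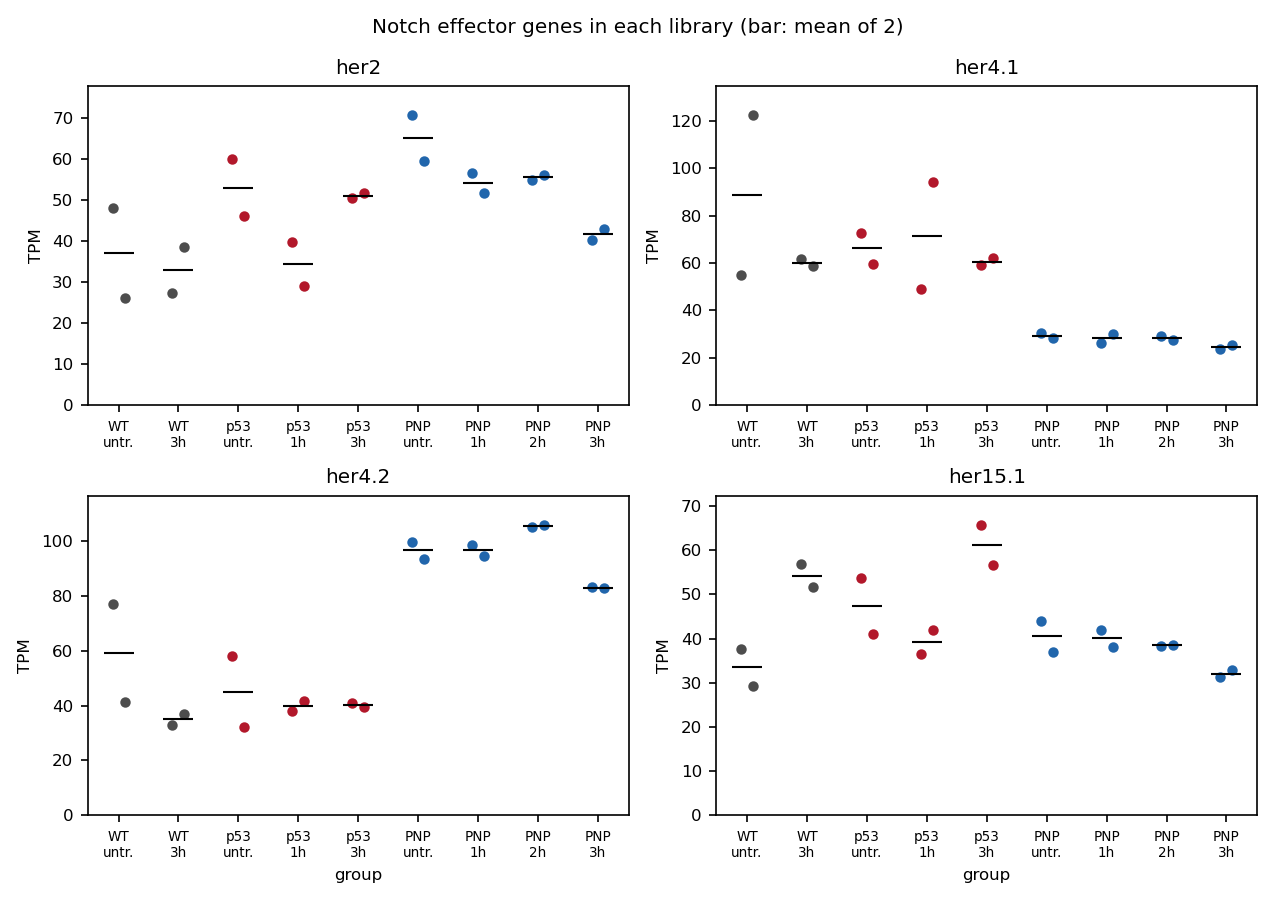
TPM of the 4 Notch effector rows in each of the 18 libraries, by group (grey, wild type; red, p53 -/-; blue, triple mutant; bars, means of 2; axes start at 0). In the triple mutant the 3 h pair is the lowest of the 4 times in each panel, while her15.1 is higher at 3 h than untreated in wild type and in p53 -/-.

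Receptors and ligands of the Notch pathway were not called at 3 h in the triple mutant. NOTCH3 stood at 17.1 and 15.2 TPM untreated and at 17.2 and 17.4 TPM at 3 h. The Delta gene dlb stood at 48.4 and 41.8 TPM untreated and at 47.3 and 47.8 TPM at 3 h. ascl1b was the proneural factor called lower, from 47.3 and 42.0 TPM untreated to 31.6 and 30.9 TPM at 3 h. Its change of -0.50 had a limma adjusted p of 0.386 over all groups and 0.0164 within the genotype, and the latter call was lost on leaving out any of the 4 libraries compared. In all, 6 rows were called at 3 h within the genotype, where 6.82% of the genes tested were called. The 4 higher rows stand against 3.78% of genes and the 2 lower ones against 3.04%. With no overlap between 3 h and untreated there were 21 higher and 12 lower rows, where 39.3% and 20.9% of genes were. Among them 13 of 19 proneural and neuron rows were higher and 2 lower, and 8 of 25 progenitor and Notch rows were higher and 10 lower. Both 3 h libraries were above the 6 others for 5 rows, where 8.02% of genes were. These were FABP7 (ENSDARG00000007697), neurog1, atoh7, INSM1 (ENSDARG00000091756) and nhlh2, and neurog1, a proneural factor of sensory neurons and neural tube, is named after its values were seen. Scaled by median-of-ratios in place of TPM, the fit called 4 higher and 5 lower, where 9.31% of genes tested were called in either direction. Most of the 6 calls at 3 h were lost without untreated replicate 2 or 3 h replicate 2, and more rows were called without either 1 h library. The share of all genes called moved the same way.

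At 1 h after irradiation, 2 rows were called lower in the triple mutant within the genotype. ATOH1, a proneural factor of the rhombic lip and of hair cells, stood at 23.2 and 18.7 TPM untreated, 10.2 and 13.4 TPM at 1 h, 16.0 and 14.95 TPM at 2 h, and 19.4 and 19.5 TPM at 3 h. It was lowest at 1 h and back within the untreated range at 3 h. Its change at 1 h was -0.78, with a limma adjusted p of 0.557 over all groups and 0.0226 within the genotype, lost without either untreated library. The difference from 1 h to 3 h was 0.69 with a limma adjusted p of 0.0347 within the genotype, a call lost in 6 of 12 alternatives. ZIC2 (ENSDARG00000037178), a zinc finger factor of the dorsal neural tube, stood at 46.3 and 45.8 TPM untreated and at 33.5 and 36.1 TPM at 1 h. Its change was -0.39, with a limma adjusted p of 0.0396 within the genotype, lost in 6 of 12 alternatives. Of the genes tested, 2.71% were called at 1 h within the genotype and 1.96% were called lower. Both calls were lost without either untreated library, and more rows were called without 1 h replicate 2. The share of all genes called moved the same way. The 2 libraries of 1 h stood apart, with 40 of 44 rows and 75.8% of all genes kept higher in replicate 2. From 1 h to 3 h, 3 rows were called, atoh7 and nhlh2 besides ATOH1, where 2.62% of genes were. All 3 were higher at 3 h, as were 1.77% of genes. All 3 calls were lost with 3 h replicate 2 left out, and more rows were called with 1 h replicate 2 left out. The share of all genes called fell and rose likewise.

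At 2 h most neural genes were higher in the triple mutant, neuron genes by more. The median change was 0.46 for proneural and neuron rows, 0.18 for progenitor and Notch rows and 0.16 for all genes kept. ELAVL3 stood at 41.6 and 37.9 TPM untreated, 33.8 and 53.2 TPM at 1 h, 64.4 and 82.3 TPM at 2 h, and 44.4 and 50.6 TPM at 3 h. It was highest at 2 h, with a change of 0.86, a limma adjusted p of 0.888 over all groups (SE 0.846) and of 0.0149 within the genotype (SE 0.189). ELAVL4, its close relative HuD, changed by 0.74 from 6.53 and 6.59 TPM to 10.8 and 12.6 TPM, with a limma adjusted p of 0.844 over all groups and 0.0214 within the genotype. tubb5 went from 144 and 134 TPM to 178 and 209 TPM, and gap43, a growth cone protein gene, from 35.6 and 38.1 TPM to 48.9 and 55.4 TPM, with limma adjusted p of 0.0184 and 0.0203 within the genotype. None of these 4 neuron genes overlapped between 2 h and untreated embryos.

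Within the genotype 12 of 19 proneural and neuron rows were called higher at 2 h and 0 lower, and 6 of 25 progenitor and Notch rows higher and 2 lower, where 24.3% of the genes tested were called, 18.4% higher and 5.83% lower. With no overlap between the groups, 33 of all 44 rows were higher and 8 lower, where 53.3% and 17.2% of genes were. Both 2 h libraries were above the 6 other triple-mutant libraries for 20 rows, where 27.7% of genes were, and these held all 3 receptor rows and both Delta rows. Besides those named, the neuron rows were NEUROD4, atoh7, nhlh2, both INSM1 rows, EBF2 and both SNAP25 rows, and the progenitor rows were SOX3, sox19a, sox19b, dlb, nes and FABP7 (ENSDARG00000007697); sox19b, nes, EBF2, SNAP25 and the second INSM1 row are named after their values were seen. ZIC2 (ENSDARG00000037178) and FABP7 (ENSDARG00000034650) were the lower ones. FABP7 (ENSDARG00000034650) went from 10.2 and 11.7 TPM to 7.51 and 8.04 TPM at 1 h and 5.49 and 6.04 TPM at 2 h, and stood at 10.2 and 9.60 TPM at 3 h. It was lowest at 2 h, with a change of -0.82 and a limma adjusted p of 0.00293 within the genotype, called in all 12 alternatives. Which rows were called at 2 h, and so the balance of higher and lower calls, depended on the scaling. Rows called under both scalings kept their direction. Scaled by median-of-ratios, which set the median change of all genes to 0.01, 6 neuron rows were called higher and 3 lower. Of progenitor rows 2 were called higher and 4 lower, where 19.7% of genes tested were called in either direction. The median changes were then 0.28 for neuron rows and 0.01 for progenitor rows. With that scaling ascl1b (-0.48, limma adjusted p 0.0108) and ATOH1 (-0.59, limma adjusted p 0.00989) were among the proneural genes called lower at 2 h. Most of the 20 calls at 2 h were lost without either untreated library or either 2 h library. Fewer rows were also called without either 3 h library, and more without either 1 h library. The share of all genes called moved the same way each time. The fits over all groups without the libraries of high or of low 5.8S RNA called 2, 20 and 6 rows at 1 h, 2 h and 3 h and 3 from 1 h to 3 h. Of all genes they called 2.21%, 20.9%, 5.43% and 2.41% without the high ones and 2.21%, 21.0%, 5.54% and 2.42% without the low ones.

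Markers of other tissues moved in the same libraries. The summed level of 13 skeletal muscle marker rows was 15317 to 16244 TPM in untreated triple mutants and 21207 to 21654 TPM at 2 h. Within the genotype 11 of 13 were called higher at 2 h, where 18.4% of genes tested were. The summed level of 12 epidermis rows was 30557 to 31050 TPM untreated, 22037 to 22458 TPM at 1 h, 24894 to 25010 TPM at 2 h and 21677 to 22566 TPM at 3 h. Of these 12 rows 7, 9 and 8 were called lower, where 1.96%, 5.83% and 3.04% of genes tested were. In p53 -/- the muscle sum was 30972 to 35419 TPM untreated and 14707 to 20580 TPM at 3 h. No marker of either list was at 0 in all libraries. At 2 h in the triple mutant 4 of 5 endothelium rows, 5 of 9 neural crest and pigment rows and 4 of 9 macrophage and microglia rows were also called higher within the genotype. In addition 1 macrophage and microglia row was called lower. The shares of all genes tested were 18.4% higher and 5.83% lower. The share of mitochondrial transcripts in the triple mutant was 4.00% and 3.57% in the untreated pair. It was 2.35% and 1.70% in the pair of 1 h, 1.15% and 1.48% in that of 2 h and 2.37% and 2.43% in that of 3 h. It was thus lowest at 2 h, the time at which 20 of the 44 neural rows and 27.7% of all genes kept had their highest pair.

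Genes of the cell cycle, which dividing progenitors express, also changed. Of 18 such rows, 2 were called higher and 8 lower at 3 h in the triple mutant within the genotype. Of all genes tested, 3.78% were called higher and 3.04% lower. MCM5 and MCM2, which encode subunits of the replicative helicase, had changes of -1.60 and -1.56, with limma adjusted p of 0.0285 and 0.047 over all groups. aurka, a mitotic kinase gene, had -1.56 with a limma adjusted p of 6.85e-05 over all groups. PCNA, the sliding clamp of DNA replication, was among the higher ones, at 0.26 with a limma adjusted p of 0.0395 within the genotype. In wild type at 3 h 5 of the 18 rows were called lower over all groups, and in p53 -/- at 3 h 2 were. Of all genes kept, 3.78% and 0.458% were called there in either direction. The summed level of the 18 rows was 2101 to 2175 TPM in untreated triple mutants, 2444 to 2572 TPM at 2 h and 2077 to 2110 TPM at 3 h. The part of these markers, of mitochondrial transcripts and of cell cycle genes in the neural changes was not tested.

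In p53 -/- embryos at 3 h, SoxB1 factors, Delta genes and most proneural and differentiation factors stood higher than in untreated embryos, without passing the test. SOX3 stood at 211 and 214 TPM untreated, 177 and 243 TPM at 1 h, and 358 and 342 TPM at 3 h. Its 2 values at 3 h were its highest over all 18 libraries. The change was 0.72 (SE 0.165), with a limma adjusted p of 0.111 over all groups. All 6 SoxB1 rows and both Delta rows had higher values in both 3 h libraries than in both untreated ones. So had all 4 differentiation factor rows and 6 of 7 proneural factor rows. In all 27 of 44 rows did, where 36.4% of all genes did. These were 16 of 25 progenitor and Notch rows and 11 of 19 proneural and neuron rows. In the other direction there were 4 rows, where 9.96% of all genes were. These were 3 of 8 neuron structural rows and 1 proneural factor. ATOH1 stood at 16.9 and 16.5 TPM untreated, 13.0 and 14.1 TPM at 1 h, and 28.7 and 26.9 TPM at 3 h, a change of 0.70 with a limma adjusted p of 0.169. atoh7 stood at 9.32 and 3.70 TPM untreated and at 3.43 and 2.85 TPM at 3 h, and gap43 at 57.8 and 51.0 TPM untreated and 42.5 and 38.8 TPM at 3 h, with changes of -0.75 and -0.41 and limma adjusted p of 0.486 and 0.713. Both were thus lower at 3 h in p53 -/- and higher at 3 h in the triple mutant, with no overlap in either.

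In p53 -/- the calls came with the leaving out of libraries. Without the 3 libraries of high 5.8S RNA, 6 rows were called at 3 h, all higher, where 8.07% of all genes were called, 3.27% higher and 4.8% lower. Without the 3 of low 5.8S RNA, 24 rows were called, 19 higher and 5 lower, where 45.7% were, 41.2% higher and 4.5% lower. SOX3, dlc, ascl1a and ATOH1 were called higher both times, and no row was called in opposite directions. At 1 h 0 rows were called without the libraries of high 5.8S RNA, where 0.124% of all genes were. Without those of low 5.8S RNA 23 rows were called, all lower, where 33.1% were called and 32.1% called lower. ELAVL3 and NOTCH1 (ENSDARG00000052094) had the most negative changes at 1 h, -0.73 and -0.82, and both became positive without p53 -/- 1 h replicate 1, at 0.99 and 0.72. No direction at 1 h in p53 -/- is therefore given.

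In wild type at 3 h, her15.1 came closest to a call. It stood at 37.7 and 29.3 TPM untreated and at 56.8 and 51.7 TPM at 3 h, with no overlap. The change was 0.69 (SE 0.174) and the limma adjusted p 0.0508. FABP7 (ENSDARG00000007697) stood at 406 and 363 TPM untreated and at 237 and 268 TPM at 3 h, a change of -0.60 with a limma adjusted p of 0.0812. ATOH1 stood at 15.6 and 10.8 TPM untreated and at 20.03 and 20.5 TPM at 3 h, a change of 0.61 with a limma adjusted p of 0.104. her4.2 stood at 77.0 and 41.4 TPM untreated and at 33.0 and 37.1 TPM at 3 h, a change of -0.68 with a limma adjusted p of 0.218. These 4 rows had no overlap between the groups. FABP7 (ENSDARG00000034650) stood at 10.1 and 3.36 TPM untreated and at 4.17 and 2.97 TPM at 3 h, where its change of -0.62 rested on untreated replicate 1. In all, 11 of 44 rows were higher and 2 lower with no overlap, where 36.0% and 6.78% of all genes were.

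The direction of most wild-type changes depended on which untreated library was used. Without the libraries of high 5.8S RNA, 21 rows were called, 3 higher and 18 lower, where 28.4% of all genes were called, 16.1% higher and 12.2% lower. Without those of low 5.8S RNA, 25 were called, 21 higher and 4 lower, where 57.2% were, 52.2% higher and 4.99% lower. Both times 11 rows were called, 8 of them in opposite directions, among them ELAVL3 and NEUROD4. ZIC2 (ENSDARG00000037178) and her15.1 were called higher, and FABP7 (ENSDARG00000007697) lower, both times. In such a fit the untreated wild type has 1 library, which is assumed to vary like the other groups.

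Differences between genotypes in the response were tested as interactions in the limma fit over all groups, and 0 of 44 rows were called in the 4 such comparisons. At an unadjusted p below 0.05 there were 2, 6, 5 and 0 rows, in the order given next. Called among all genes were 0.382% for wild type against p53 -/- at 3 h, 0.28% for the triple mutant against p53 -/- at 3 h, 0.0592% for the triple mutant against wild type at 3 h, and 0.0269% for the triple mutant against p53 -/- at 1 h. The difference nearest to a call was that of atoh7, 2.39 (SE 0.476) for the triple mutant minus p53 -/- at 3 h, with an adjusted p of 0.0818. Its p53 -/- part rested largely on untreated replicate 1. ascl1b had -0.83 (SE 0.208) in the same comparison, with an adjusted p of 0.255. her15.1 had -1.01 (SE 0.246) and FABP7 (ENSDARG00000007697) 1.099 (SE 0.245) for the triple mutant minus wild type, with adjusted p of 0.395 and 0.27. In the comparison of the triple mutant with p53 -/- at 3 h, 23 of 25 progenitor and Notch rows had a negative difference, with a median of -0.44. For the 19 proneural and neuron rows the median was 0.08, and for all genes -0.11. For wild type minus p53 -/- at 3 h, 23 of the 25 progenitor and Notch rows were negative as well, with a median of -0.29, and all genes had 0.06. For the triple mutant minus wild type 14 were negative and 11 positive, with a median of -0.06, and all genes had -0.18. Both comparisons with p53 -/- share its libraries. The calls came, again, with the leaving out of libraries. Without the libraries of high 5.8S RNA, 12, 5, 19 and 0 rows were called in these 4 comparisons, where 7.67%, 3.83%, 15.5% and 0.231% of all genes were. Without those of low 5.8S RNA, 2, 14, 12 and 12 rows were called, where 1.99%, 23.4%, 28.7% and 20.2% were. These comparisons share their untreated libraries with the changes above, and those of wild type and p53 -/- include the pairs with 5.8S RNA.

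Further genes of the same pathways were read beside the members. In the triple mutant within the genotype, 21 of 43 other neuron genes were called higher and 0 lower at 2 h, where 18.4% and 5.83% of all genes tested were, and 0 were called at 3 h. Among those called were the GABA neuron genes GAD1 and SLC32A1, at 0.78 and 0.81, with limma adjusted p of 0.0111 and 0.0103. Of 29 other Notch pathway genes, 6 were called higher at 2 h and 0 lower, a share near that of all genes. At 3 h LFNG, a glycosyltransferase that modifies Notch, was called higher (0.67, limma adjusted p 0.00156 within the genotype). The hairy-related genes her5 and her8a were called lower at 3 h within the genotype, as were 3.04% of all genes tested. Their changes were -0.53 and -0.56, with limma adjusted p of 0.0482 and 0.0246 there and 0.854 and 0.526 over all groups. her8.2, her11 and her12 of the same list were not called at 3 h. Of 36 other progenitor genes, 9 were called higher and 5 lower at 2 h, and 1 higher and 3 lower at 3 h, where 3.78% of all genes were called higher and 3.04% lower.

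These counts depended on single libraries and on the scaling. At 2 h 14 other neuron genes were called higher with median-of-ratios scaling, where 19.7% of genes tested were called in either direction. Fewer were called than in the unscaled fit without either untreated library or either 2 h library, and more without either 1 h library. Of all genes, 3.0% were called at 2 h without untreated replicate 2 and 2.37% without 2 h replicate 2. The counts of other Notch and other progenitor genes called higher at 2 h also varied widely over the same alternatives, as did the share of all genes called. At 3 h some other neuron genes were called higher without either 1 h library, where the share of all genes called was also larger.

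sox21a, a SoxB2 factor, had a change of -1.01 in wild type at 3 h, with a limma adjusted p of 0.00563 over all groups and 0.397 within the genotype. Without the libraries of high and of low 5.8S RNA that change was -0.83 and -1.20, with limma adjusted p of 0.00132 and 0.00014. sox21a was not the only row of the further lists called lower in wild type at 3 h over all groups. Other rows of its own list were called lower there, as were rows of the cell cycle, epidermis and lens lists. Among them were aurka (-1.04, limma adjusted p 0.00135) and epcam, an epidermis marker (-1.10, limma adjusted p 0.00321). CORO1A of the macrophage and microglia list was called higher. her8.2, a hairy-related gene, changed there by -0.82, with a limma adjusted p of 0.0445. Called there in either direction were 3.78% of all genes kept. sox21a changed by -0.60 in p53 -/- at 3 h, with a limma adjusted p of 0.179 over all groups. That change was -0.55 and -0.66 without the libraries of high and of low 5.8S RNA. In the triple mutant the change of sox21a at 3 h was -0.50, with a limma adjusted p of 0.551 over all groups and 0.00746 within the genotype. It was thus called in wild type over all groups and in the triple mutant within the genotype, and in neither of these 2 fits in both. Over all groups without the libraries of high or of low 5.8S RNA it was called in both, with limma adjusted p of 0.0193 and 0.0184 in the triple mutant.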

How the data were processed

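RNA of whole zebrafish embryos was measured in 18 libraries in 9 groups of 2. Each genotype has a table of its own, in which the authors deposited TPM for 32057 genes. Poly(A) selection and paired reads are given per the labels' protocols. STAR 2.7.3a, HTSeq 0.12.3, RSEM 1.3.3, DESeq2 1.42.1, R 4.3.3 and the build GRCz11 are named per the submitters' processing notes, which give them no role; the annotation release is not given in the sources used here. Depth is unknown, and only the number of libraries limits the precision that can be stated.

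The members and the other gene lists were chosen with earlier results of these data known. A symbol was found for 28988 genes. The 18575 genes that reached 1 TPM in 2 or more libraries were tested as log2(TPM + 1) with limma 3.58.1 in R 4.3.3, with group means, a trend in the variance, two-sided p-values and Benjamini-Hochberg adjustment, with 9 residual and 2.87 prior degrees of freedom. Groups came from the sample titles and genotype labels. Named are the 2 rows of highest mean in each role class and the 2 largest changes in each direction in each irradiated group; others are named after their values were seen, for which the text says so or gives a count. Alternatives changed the pseudocount (0.1 and 5), the filter, the scaling, the set of libraries and a replicate block. The fit within a genotype was one of them, and its own alternatives were chosen after seeing the data. The code was tested on simulated data. No sequence is printed. One gene of the further progenitor list is not reported here by name.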

Additional observations from a re-analysis of the deposited data

Results flagged for a closer look

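The 15 differences given here were taken up because both libraries of one genotype lay above its untreated libraries while both of another genotype lay below theirs at the same time. Each difference was tested as an interaction in the limma fit over all groups, and none passed, with adjusted p from 0.0818 for atoh7 to 1 for SOX2 and others. For the triple mutant minus p53 -/- at 3 h, 7 were negative on the log2 scale, namely SOX2 (-0.55, SE 0.356), sox19a (-0.39), ZIC1 (-0.51), ZIC2 (ENSDARG00000015554) (-0.53), her15.1 (-0.69), ascl1b (-0.83) and STMN1 (ENSDARG00000004169) (-0.36). These 5 progenitor and Notch genes, ascl1b and STMN1 were higher than untreated in p53 -/- and lower in the triple mutant. In the other direction stood atoh7 (2.39) and gap43 (0.73). For the triple mutant minus wild type at 3 h the values were -0.46 for SOX2, -0.70 for ZIC2 (ENSDARG00000037178), -1.01 for her15.1, 1.099 for FABP7 (ENSDARG00000007697) and -0.27 for STMN1 (ENSDARG00000004169). At 1 h STMN1 (ENSDARG00000004169) had -0.17 for the triple mutant minus p53 -/-. All use the untreated pairs of wild type or p53 -/-, which differ in 5.8S RNA.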

How the results depend on the processing

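The count of 44 neural rows called was 0 in every comparison of the main fit, and it changed mainly with the set of libraries. In wild type at 3 h it was 1 with log2(TPM + 5), 1 without the filter, 2 with median-of-ratios scaling, 21 without the libraries of high 5.8S RNA and 25 without those of low 5.8S RNA. In p53 -/- it was 23 at 1 h without the low ones, and 6 and 24 at 3 h without the high and without the low ones. In the triple mutant at 1 h, 2 h, 3 h and from 1 h to 3 h it was 2, 20, 6 and 3 in each of 3 settings, the fit within the genotype and the fits without the high and without the low libraries. These 3 settings hold the same triple-mutant libraries and give the same changes there, so their equal counts are not separate support. The 20 rows called at 2 h were not all the same ones. At 3 h the count in the triple mutant was also 1 with log2(TPM + 0.1). For differences in response without the high and low libraries it was 12 and 2 (wild type minus p53 -/- at 3 h), 5 and 14 (triple mutant minus p53 -/- at 3 h) and 19 and 12 (triple mutant minus wild type), and 12 without the low ones for the triple mutant minus p53 -/- at 1 h. Leaving out 1 library at a time gave 0 to 2 in wild type, 0 to 10 in p53 -/- at 1 h, 0 to 1 in p53 -/- at 3 h, in the triple mutant at 3 h and in its difference from p53 -/- at 3 h, and 0 to 0 elsewhere; the 10 came without p53 -/- 1 h replicate 2. Within the triple mutant the ranges were 0 to 10, 1 to 28, 2 to 13 and 0 to 14, and from 1 h to 3 h median-of-ratios gave 5. Over leaving out 1 library within the triple mutant, the share of all genes called was largest at the top of each range. It was smallest at the bottom of each. No share of all genes is given for the counts of 1, 2 and 10 in wild type and p53 -/-, so these lack a background. The cause of these changes in count was not tested.

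Same-numbered deviations correlated at -0.34 in wild type, at 0.79 between untreated p53 -/- and p53 -/- at 1 h, where replicate 1 has more 5.8S RNA in both, at 0.03 and 0.04 in the other p53 -/- pairs, and at -0.10 to 0.17 in the triple mutant. Numbers were not taken as pairs, since not every correlation within a genotype was above 0.1. The replicate block took the wild-type count to 1 and left it at 0 in the other comparisons. Reversed single changes were FABP7 (ENSDARG00000034650) in wild type at 3 h, 0.0553 without the high 5.8S libraries (-1.30 to 0.0553 over leaving out 1 library), and, in p53 -/- at 1 h, NOTCH1 (ENSDARG00000052094) at 0.12 without the high ones (-2.36 to 0.72), ELAVL3 at 0.45 (-2.45 to 0.99) and atoh7 at -0.0155 without the low ones. Of the other changes of named rows, 125 became called and 1090 did not change their call or direction. TPM holds no depth, so what depth limits cannot be given.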
